A study of Mus musculus with 30 samples.

Results

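The genes described here are the IGF ligands Igf1 and Igf2, the receptor Igf1r and the binding proteins Igfbp2, Igfbp3, Igfbp4, Igfbp5, Igfbp6 and Igfbp7, as RNA in 6 stromal cell populations of mouse mammary tumours. They were chosen by name, through their Entrez identifiers, and all 9 are among the 14118 genes of the deposited count matrix. The 30 libraries are bulk RNA-seq, with 6 populations sorted from each of 5 tumours (numbered 5, 6, 8, 10 and 11), each from its own mouse. All mice were of the strain FVB/N-Tg(MMTVPyVT)634Mul/J, in which the MMTV promoter drives the polyoma virus middle T antigen in the mammary epithelium, and every tumour had a volume of 750 mm3. No tumour-free tissue is among these groups, so every comparison is between cells of the same tumours. Endothelial cells (EC) were CD45- CD31+. Cancer-associated fibroblasts were CD45- CD31- CD90+ and either CD34- (CAF1) or CD34+ (CAF2). Tumour-associated macrophages were CD45+ F4/80+ and either CD206+ with low MHC class II (CD206hi), CD206+ with high MHC class II (CD206pos) or CD206- with low MHC class II (CD206neg).

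IGF1 and IGF2 are secreted growth factors that signal mainly through the IGF1 receptor, a receptor tyrosine kinase that feeds the PI3K-AKT and MAPK pathways. Most secreted IGF is held by IGF binding proteins, which carry it, keep it from the receptor or release it when proteases cut them. IGFBP7 differs from the others in binding IGF with low affinity, and IGFBP6 prefers IGF2 to IGF1. In the mammary gland IGF1 from the stroma acts on the epithelium, and RNA of a secreted protein says where it is made, not where it acts.

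The sequences below are the 250 bases before a RefSeq start of 5 members (GRCm38.p6, the assembly also called mm10), each read 5' to 3' on the gene's own strand. Igf1, Igfbp4 and Igfbp6 are shown because their RNA was higher in both CD206+ macrophage populations than in CD206neg cells, Igfbp3 because its level was highest in EC, and Igfbp2 because its level was highest in CAF1. Capitals mark matches, on either strand, to the TATA box (TATAAA), the GC box (GGGCGG), the hypoxia response core (ACGTG), the AP-1 element (TGANTCA) and the STAT5-type element (TTCNNNGAA).
Igf1: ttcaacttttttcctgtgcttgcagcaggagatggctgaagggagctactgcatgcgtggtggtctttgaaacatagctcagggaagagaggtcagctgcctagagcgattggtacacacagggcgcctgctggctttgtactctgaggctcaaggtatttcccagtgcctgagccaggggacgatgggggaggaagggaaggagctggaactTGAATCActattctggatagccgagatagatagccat
Igfbp4: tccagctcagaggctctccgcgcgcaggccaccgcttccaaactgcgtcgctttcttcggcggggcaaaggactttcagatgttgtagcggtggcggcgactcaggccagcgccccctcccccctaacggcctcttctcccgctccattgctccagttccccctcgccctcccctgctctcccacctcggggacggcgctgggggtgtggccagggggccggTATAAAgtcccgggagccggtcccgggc
Igfbp6: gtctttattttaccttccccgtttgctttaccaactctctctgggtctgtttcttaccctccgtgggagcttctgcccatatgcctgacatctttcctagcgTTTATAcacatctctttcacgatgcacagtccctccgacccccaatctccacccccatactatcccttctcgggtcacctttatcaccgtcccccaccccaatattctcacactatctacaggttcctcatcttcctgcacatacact
Igfbp3: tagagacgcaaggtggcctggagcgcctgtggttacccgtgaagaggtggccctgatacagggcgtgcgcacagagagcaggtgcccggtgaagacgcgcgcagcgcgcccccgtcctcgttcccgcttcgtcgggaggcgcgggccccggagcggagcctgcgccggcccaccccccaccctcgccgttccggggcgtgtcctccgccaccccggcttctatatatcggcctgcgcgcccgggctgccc
Igfbp2: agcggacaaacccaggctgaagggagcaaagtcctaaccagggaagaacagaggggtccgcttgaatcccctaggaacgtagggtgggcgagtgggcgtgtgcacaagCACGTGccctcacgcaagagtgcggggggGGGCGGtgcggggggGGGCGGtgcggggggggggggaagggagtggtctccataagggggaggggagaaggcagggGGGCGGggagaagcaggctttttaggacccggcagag
These windows lie at chr10:87860861-87861110 (plus strand) for Igf1, chr11:99040994-99041243 (plus) for Igfbp4, chr15:102143936-102144185 (plus) for Igfbp6, chr11:7213924-7214173 (minus) for Igfbp3 and chr1:72824230-72824479 (plus) for Igfbp2. Igf1 held 1 match to the AP-1 pattern TGANTCA, reading TGAATCA. Any match to that pattern was found in 6.75% of the 32851 mouse promoter windows of the same length. Igfbp4 and Igfbp6 each held 1 TATA box (12.4% of windows), which in Igfbp6 lies on the opposite strand and reads TTTATA. Igfbp2 held 3 GC boxes (32.7% of windows) and a CACGTG, which counts as an ACGTG on each of the 2 strands (16.6% of windows). RefSeq gives Igfbp2 another start, whose window (chr1:72825137-72825386, plus strand, not printed) held 1 AP-1 element and no GC box or ACGTG. The printed windows of Igf1, Igfbp4 and Igfbp3 lie inside the gene spans given below, so they do not precede the outermost end of the gene. No letters of these motifs were in the Igfbp3 window, and the STAT5-type element (7.02% of windows) was in none of the 5 printed. The 3 members higher in CD206+ macrophages shared no motif of this set. A match describes these letters only.

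The sorted populations carried the transcripts of their sort markers. Pecam1, the CD31 gene, averaged 927 CPM (counts scaled to the library's total) in EC and at most 1.8 CPM in the other populations. Thy1, the CD90 gene, averaged 47.6 CPM in CAF1 and 44.7 CPM in CAF2, while Cd34 averaged 53.8 CPM in CAF1 and 1603 CPM in CAF2. Mrc1, the CD206 gene, averaged 989.7 CPM in CD206hi, 1206 CPM in CD206pos and 67.8 CPM in CD206neg. Its mean was thus not higher in CD206hi than in CD206pos, unlike what the names say. The CD206neg libraries of tumours 6 and 8 are labelled as low in MHC class II, but their columns are named for high. Their 4 MHC class II genes summed to 64599 and 24787 CPM, against 1463 to 8564 CPM in the other CD206neg libraries. That sum was 374 to 2203 CPM in CD206hi and 7406 to 41228 CPM in CD206pos. The lowest CD206pos library, of tumour 5, thus lay below the CD206neg libraries of tumours 10 (7802 CPM) and 11 (8564 CPM). The labels were followed. For CD206hi or CD206pos against CD206neg, results that change without these 2 libraries are given both ways. For EC against CD206neg, values without them are not given here. Luminal epithelial transcripts (10 genes) summed to 218 to 2621 CPM in EC, 233 to 1878 CPM in CAF1, 9.39 to 479 CPM in CAF2 and 24.1 to 572 CPM over the 15 macrophage libraries. Pericyte transcripts (8 genes) summed to 699 to 2770 CPM in CAF1, against 156 to 263 CPM in CAF2. Libraries held 6292411 to 11957076 counts, so that a gene without counts could still lie at up to 3 counts, or 0.251 to 0.477 CPM. These limits cover counting error only.

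**Figure D1:**
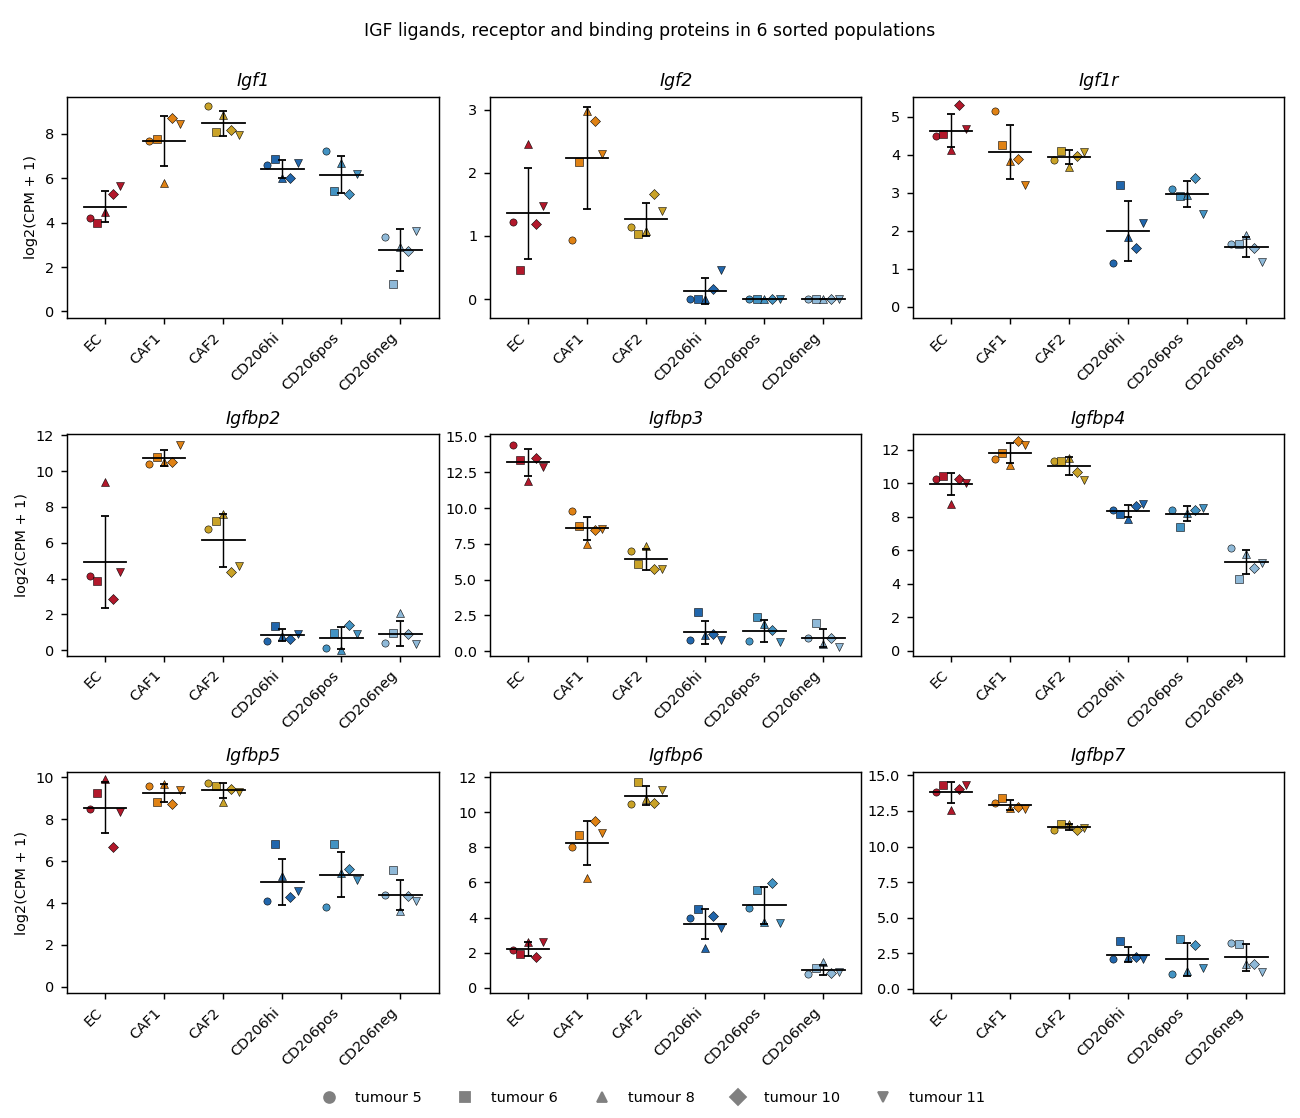
Level of each of the 9 genes as log2(CPM + 1) in every library, by population, with a marker shape for each tumour, a line at the mean and a bar of 1 SD (n = 5). Igfbp3 and Igfbp7 stand highest in EC, Igfbp2 in CAF1 and Igfbp6 in CAF2, and all but Igf1 and Igfbp6 have their 3 lowest means in the macrophage populations.

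Every one of the 9 genes was higher in the 2 fibroblast populations than in the 3 macrophage populations at an adjusted p under 0.05 (quasi-likelihood test of edgeR, with the Benjamini-Hochberg adjustment made over all genes), where 68.1% of all genes passed in either direction, 37.3% higher and 30.8% lower in fibroblasts. Their median log2 fold change was 6.43, or 5.28 over the other 8 without Igf2, whose macrophage counts are near 0, against 0.10 over all genes. In EC against macrophages 9 of 9 passed, 7 higher and 2 lower, beside 61.3% of all genes (36.5% higher, 24.7% lower), with a median of 2.84 (2.42 over the other 8 without Igf2) against 0.17 over all genes. CAF1 against CAF2 gave 5 of 9 (4 higher, 1 lower), beside 19.5% of all genes (10.9% higher, 8.59% lower), and a median of 1.04 against 0.01. EC differed from CAF1 in 6 of 9 (1 higher, 5 lower), beside 34.7% of all genes (15.9% higher, 18.8% lower), with a median of -1.82 against -0.00. From CAF2 they differed in 5 of 9 (2 higher, 3 lower), a share close to the 46% of all genes (23.7% higher, 22.3% lower), with a median of -0.09 against 0.05. Among macrophages 7 of the 9 had enough counts to be tested, the exceptions being Igf2 and Igfbp2. None of the 7 passed in CD206hi against CD206pos, where 0.19% of all genes did (median -0.04 against 0.00), and the smallest adjusted p was 0.52, while 1 of them, Igfbp6, had an unadjusted p under 0.05 (0.014) in edgeR and none was called by DESeq2. CD206hi exceeded CD206neg in 3 of 7, beside 10% of all genes (6.14% higher, 3.9% lower), with a median of 0.68 against 0.02. CD206pos exceeded CD206neg in 4 of 7, beside 14.7% of all genes (8.85% higher, 5.85% lower), with a median of 1.58 against 0.02. Comparisons that share a population share its libraries, and in a bulk library fewer cells of a type and less RNA per cell cannot be told apart. Fold changes come from counts scaled by TMM factors (0.547 to 1.67 over the 30 libraries), and so differ from plain ratios of CPM.

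**Figure D2:**
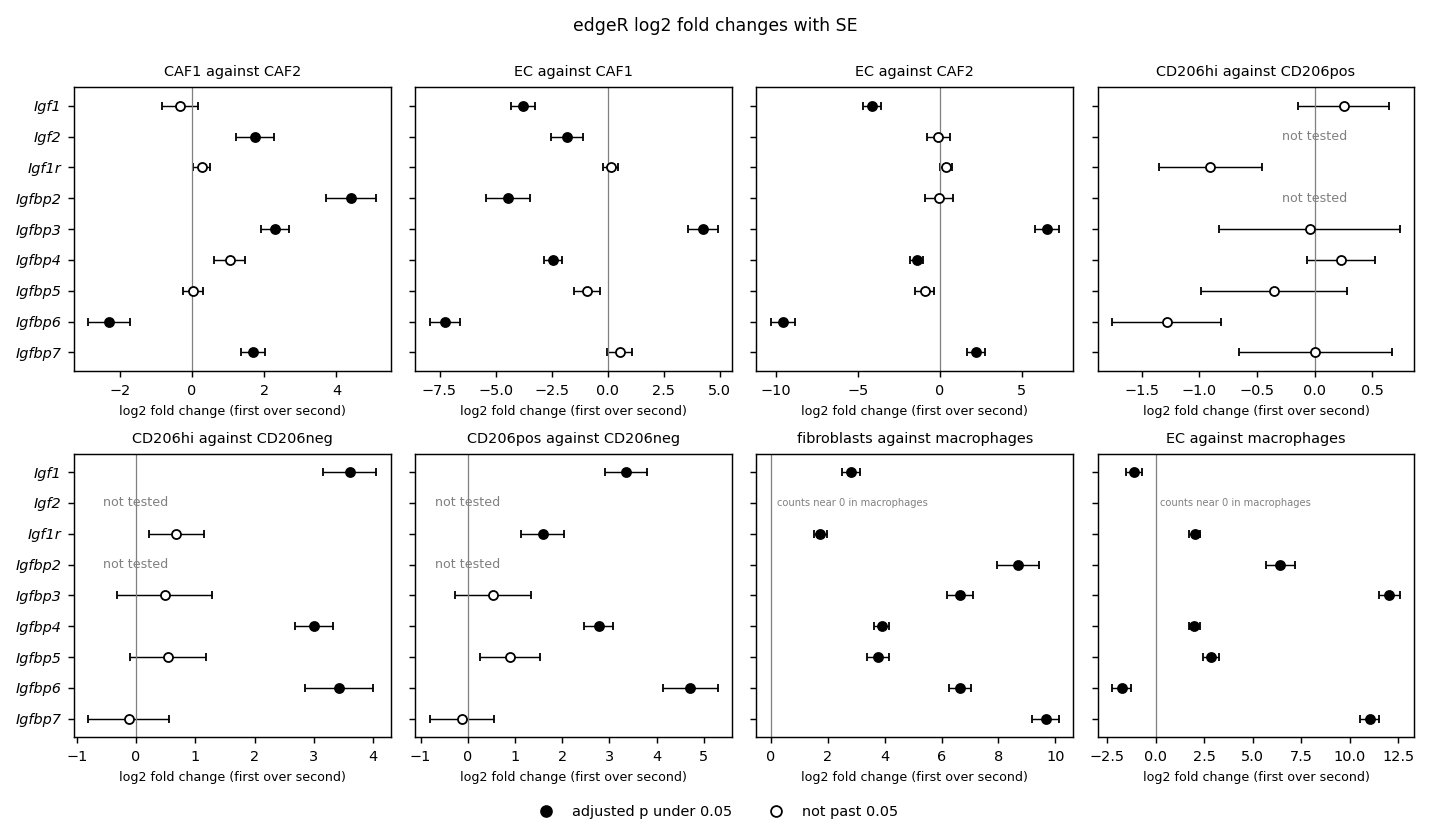
Log2 fold change of each gene, first-named population over the second, in 8 comparisons, filled where the adjusted p is under 0.05. Bars are the SE derived from the test's F. Fibroblasts exceeded macrophages for every gene plotted (Igf2, near 0 in macrophages, is not plotted there), no gene is filled in CD206hi against CD206pos, and Igfbp3 and Igfbp6 lie on opposite sides of 0 in EC against either fibroblast population.

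Igf1 (chr10:87858265-87937047, plus strand), the main ligand made by stromal cells, was most abundant in fibroblasts and present in macrophages. It had 17.7, 14.98, 21.2, 37.8 and 49.1 CPM in EC of tumours 5, 6, 8, 10 and 11, then 202, 217, 54.6, 422 and 352 CPM in CAF1 and 616, 271, 464, 290.5 and 249.5 CPM in CAF2. The EC libraries were all below every fibroblast library, while CAF1 and CAF2 overlapped, with CAF1 of tumour 8 the lowest fibroblast library. The log2 fold change of EC was -3.77 ± 0.54 (SE) over CAF1 (adjusted p = 1.7e-06) and -4.11 ± 0.54 over CAF2 (adjusted p = 3.5e-07), whereas CAF1 over CAF2 gave -0.33 ± 0.49 (adjusted p = 0.708). In macrophages Igf1 had 95.8, 117, 62.9, 64.2 and 101.5 CPM in CD206hi, 150.3, 41.5, 101.5, 38.2 and 72.7 CPM in CD206pos, and 9.10, 1.32, 6.45, 5.56 and 11.4 CPM in CD206neg. Each CD206+ library was above every CD206neg library, and the 2 CD206+ populations overlapped. CD206hi stood 12.2-fold above CD206neg (log2 3.60 ± 0.45, adjusted p = 5.61e-05) and CD206pos 10.2-fold above it (log2 3.35 ± 0.44, adjusted p = 8.88e-05), each higher in 5 of 5 tumours. EC as a whole were lower than the macrophages (log2 -1.13 ± 0.42, adjusted p = 0.0226). That call was lost without the EC library of tumour 5 (adjusted p = 0.0655), 6 (0.0671) or 8 (0.0600), and without all libraries of tumour 5 (0.0896) or 6 (0.0604). It joins opposite sides of the EC mean. EC were below CD206hi (log2 -2.41 ± 0.51, adjusted p = 0.000196) and CD206pos (log2 -2.17 ± 0.50, adjusted p = 0.000562). They were above CD206neg (log2 1.19 ± 0.51, adjusted p = 0.0472), close to the threshold. Values of that last call under the alternatives, also without the CD206neg libraries of tumours 6 and 8, are not given here.

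Igf2 (chr7:142650768-142666816, minus strand), a ligand best known from fetal growth and an imprinted gene, was scarce everywhere, with 371 counts in all 30 libraries. It had 1.33, 0.374, 4.48, 1.27 and 1.78 CPM in EC, 0.907, 3.49, 6.91, 6.07 and 3.92 CPM in CAF1, and 1.199, 1.05, 1.11, 2.17 and 1.63 CPM in CAF2. The CAF1 libraries of tumours 6, 8, 10 and 11 lay above every CAF2 library, and the CAF1 library of tumour 5 lay below them all. In CAF1 it was 3.36-fold higher than in CAF2 (log2 1.75 ± 0.53, adjusted p = 0.0359), a call lost with tumour as a block (adjusted p = 0.0738) and in 13 of the 15 sets that left out libraries (adjusted p up to 0.153). Only without the CAF1 library of tumour 5, or all of tumour 5, did the call hold. EC were 3.54-fold lower than CAF1 (log2 -1.82 ± 0.70, adjusted p = 0.0494), which was lost in 11 of 15 such sets (adjusted p up to 0.204). Macrophages held 4 Igf2 reads in all, 1 in the CD206hi library of tumour 10 and 3 in that of tumour 11, and none in CD206pos or CD206neg. Taking 3 counts over the whole group as the limit for a group with none, CAF1 (202 reads) were at least 60.6-fold above CD206pos and 63.3-fold above CD206neg, CAF2 (76 reads) at least 20.7-fold and 21.6-fold, and EC (89 reads) at least 28.0-fold and 29.2-fold. Of the EC reads 48 came from tumour 8, and without that EC library the last 2 bounds were 16.9-fold and 17.7-fold. With a library of either side left out, the CAF1 bounds fell to as low as 46.8-fold and 49.1-fold. Those of CAF2 fell to as low as 16.0-fold and 16.8-fold. The limit covers counting error in the group with none only, not the spread between tumours. The Igf2 locus overlaps Mir483 and the antisense Igf2os. As the strand setting of the counting is not given in the sources used here, reads of an overlapping gene cannot be told apart. This also holds for Igf1 (Igf1os), Igf1r (Gm51488 and Gm51487) and Igfbp7 (Polr2b and Gm34648).

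Igf1r (chr7:67952257-68233668, plus strand), the receptor kinase for both ligands, did not pass in any comparison of EC, CAF1 and CAF2. Its levels were 21.6, 22.1, 16.3, 38.7 and 24.4 CPM in EC, 34.2, 17.9, 13.2, 13.7 and 8.20 CPM in CAF1, and 13.5, 16.2, 11.7, 14.5 and 15.9 CPM in CAF2. EC lay above CAF2 in each library but overlapped CAF1, whose tumour 5 library, the highest, also had the highest sums of myoepithelial (4088 CPM), luminal (1878 CPM) and pericyte (2770 CPM) transcripts among CAF1. Scaled by TMM, EC did not pass against CAF1 (log2 0.13 ± 0.35, adjusted p = 0.813) or CAF2 (log2 0.39 ± 0.35, adjusted p = 0.383), nor did CAF1 against CAF2 (log2 0.27 ± 0.23, adjusted p = 0.483). Among macrophages it had 1.21, 8.24, 2.58, 1.89 and 3.56 CPM in CD206hi, 7.58, 6.52, 6.71, 9.41 and 4.46 CPM in CD206pos, and 2.12, 2.12, 2.66, 1.89 and 1.255 CPM in CD206neg. Every CD206pos library exceeded every CD206neg library, and CD206hi overlapped both. CD206pos were 3.0-fold above CD206neg (log2 1.58 ± 0.46, adjusted p = 0.0274), and the count of 10 to 78 reads per library in these 2 groups limits its precision. The call was lost without tumour 10 (adjusted p = 0.114), without tumour 11 (0.104), without the CD206pos library of tumour 6 (0.0540) or 10 (0.0592), without the CD206neg library of tumour 5 (0.0672), 10 (0.0674) or 11 (0.0690), and without both CD206neg libraries named for high MHC class II (0.0609). CD206hi over CD206neg gave log2 0.68 ± 0.46 (adjusted p = 0.461). Over all macrophages, EC were higher by log2 2.0 ± 0.27 (adjusted p = 1.89e-07) and fibroblasts by log2 1.74 ± 0.23 (adjusted p = 9.94e-08).

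Igfbp3 (chr11:7206086-7215498, minus strand), the main carrier of IGF in serum, was highest in EC. It had 22066, 10303, 3769, 11491 and 7517 CPM in EC, 873, 419.7, 182, 349 and 365 CPM in CAF1, and 130.1, 68.3, 166, 53.9 and 52.1 CPM in CAF2, against 0.251 to 5.59 CPM in the macrophages. The 3 lineages did not overlap, and neither did CAF1 and CAF2. EC exceeded CAF1 19-fold (log2 4.25 ± 0.65, adjusted p = 5.66e-06) and CAF2 92.4-fold (log2 6.53 ± 0.73, adjusted p = 1.74e-08). CAF1 exceeded CAF2 4.90-fold (log2 2.29 ± 0.39, adjusted p = 0.00136), higher in 5 of 5 tumours. Over macrophages EC were higher by log2 12.04 ± 0.55 (adjusted p = 1.82e-17), 11.38 without tumour 5 and 12.86 without tumour 6. Fibroblasts were higher than macrophages by log2 6.65 ± 0.45 (adjusted p = 5.79e-14), 7.44 without tumour 6, whose macrophage libraries had the highest Igfbp3 level in each of the 3 populations.

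Igfbp7 (chr5:77349240-77408045, minus strand), a low-affinity binder known in vessel walls, had the most counts of the 9 genes, 1187390 over the 30 libraries. It had 14672, 20659.6, 5945, 17073 and 20157 CPM in EC, 8595, 10917, 6538, 7025 and 6412 CPM in CAF1, and 2335, 3095, 3064, 2242 and 2506 CPM in CAF2. EC overlapped CAF1 through the EC library of tumour 8, and CAF2 lay below both. EC stood 4.60-fold above CAF2 (log2 2.20 ± 0.57, adjusted p = 0.00206) and did not pass against CAF1 (log2 0.53 ± 0.54, adjusted p = 0.499). CAF1 stood 3.22-fold above CAF2 (log2 1.69 ± 0.33, adjusted p = 0.003), higher in 5 of 5 tumours. The macrophage populations had 1.04 to 10.5 CPM. EC exceeded them by log2 11.02 ± 0.50 and fibroblasts by log2 9.66 ± 0.46 (adjusted p = 1.62e-17 and 2.33e-17).

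Igfbp2 (chr1:72824480-72852474, plus strand), a binder that circulates at high level in early life, was highest in CAF1, and its gene lies 5590 bp from Igfbp5 on chromosome 1. It had 16.4, 13.4, 662, 6.35 and 19.6 CPM in EC, 1332, 1779, 1468, 1480.1 and 2835 CPM in CAF1, and 108, 148, 193, 19.99 and 24.7 CPM in CAF2. CAF1 lay above every other library, and the EC library of tumour 8 stood far above the other 4. CAF1 exceeded CAF2 21.1-fold (log2 4.40 ± 0.70, adjusted p = 0.000782; 3.69 without tumour 11). Beside this, the pericyte sums given above and smooth muscle sums (5 genes, 796 to 5015 CPM in CAF1, against 149 to 319 CPM in CAF2) were also higher in CAF1, and their part in the difference was not tested. EC were 21.9-fold below CAF1 (log2 -4.45 ± 0.99, adjusted p = 0.000678), by -5.95 with tumour as a block, -7.58 without the EC library of tumour 8, -7.70 without tumour 8 and -3.74 without tumour 11. Against CAF2, EC gave log2 -0.06 ± 0.86 (adjusted p = 0.967) with all libraries, but -3.21 (adjusted p = 0.000398) without the EC library of tumour 8 and -2.83 (adjusted p = 0.000936) without tumour 8. That library had the highest sums of pericyte (1975 CPM), smooth muscle (1948 CPM) and fibroblast transcripts (1443 CPM) among EC and the lowest of blood endothelial ones (3637 CPM, against 7038 to 7663 CPM in the other 4). Their part in its Igfbp2 level was not tested. Macrophages had 0 to 3.17 CPM, too few counts for a test within that lineage. EC were higher than them by log2 6.42 ± 0.74 (adjusted p = 8.82e-09), or 3.29 without the EC library of tumour 8, 3.42 without tumour 8 and 5.25 with tumour as a block, and fibroblasts by log2 8.68 ± 0.74 (adjusted p = 1.18e-11).

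Igfbp4 (chr11:99040005-99052655, plus strand), a binder that holds IGF from its receptor until the protease PAPP-A cuts it, was expressed in all 6 populations. It had 1226, 1391, 438, 1201 and 1034 CPM in EC, 2789.8, 3580.1, 2174, 5846 and 4949 CPM in CAF1, and 2541, 2543, 2976, 1659 and 1200.4 CPM in CAF2. EC lay below CAF1 throughout and overlapped CAF2, as CAF1 did. EC were 5.39-fold below CAF1 (log2 -2.43 ± 0.41, adjusted p = 2.06e-05) and 2.64-fold below CAF2 (log2 -1.40 ± 0.39, adjusted p = 0.00448). CAF1 over CAF2 gave log2 1.04 ± 0.43 (adjusted p = 0.114), which DESeq2 called (adjusted p = 0.0233). The macrophage levels were 334, 283, 235, 394 and 430.4 CPM in CD206hi, 341, 166, 303, 334 and 367 CPM in CD206pos, and 70.1, 18.5, 54.7, 30.1 and 36 CPM in CD206neg. Every CD206+ library exceeded every CD206neg library. CD206hi were 8.01-fold above CD206neg (log2 3.0 ± 0.32, adjusted p = 2.17e-05) and CD206pos 6.84-fold above it (log2 2.77 ± 0.31, adjusted p = 3.41e-05). Pappa, the gene of the protease, had 0.543 ± 0.727 CPM in EC, 6.78 ± 5.47 CPM in CAF1 and 3.65 ± 1.89 CPM in CAF2 (n = 5 each, SD), and was at 0 in all CD206pos and CD206neg libraries.

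Igfbp5 (chr1:72858065-72874865, minus strand), known from mammary involution, passed in no comparison of EC, CAF1 and CAF2 without a tumour block. It had 353, 611, 978, 102 and 324 CPM in EC, 759, 455, 815, 426 and 675 CPM in CAF1, and 836, 775, 449, 686 and 630.0 CPM in CAF2. The 3 populations overlapped. CAF1 over CAF2 gave log2 0.02 ± 0.27 (adjusted p = 0.970), EC over CAF1 -0.94 ± 0.58 (adjusted p = 0.226) and EC over CAF2 -0.93 ± 0.58 (adjusted p = 0.196), the last called only with tumour as a block (log2 -1.11, adjusted p = 0.0464). In macrophages it ranged from 16.0 to 110.1 CPM in CD206hi, 13.1 to 112 CPM in CD206pos and 11.4 to 46.6 CPM in CD206neg, highest in tumour 6 in each. The macrophage libraries of tumour 6 also had the highest luminal epithelial sums, 362, 370 and 572 CPM in CD206hi, CD206pos and CD206neg. Fibroblast sums were highest in tumour 6 in CD206pos (25.7 CPM) and CD206neg (31.9 CPM), but not in CD206hi. The part of either list was not tested. No macrophage comparison passed (adjusted p 0.383 to 0.943). Over macrophages EC were higher by log2 2.84 ± 0.43 (adjusted p = 1.31e-06) and fibroblasts by 3.78 ± 0.39 (adjusted p = 6.84e-10; 4.41 without tumour 6).

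Igfbp6 (chr15:102144186-102149512, plus strand), the binder that prefers IGF2, was lowest in EC and CD206neg and highest in CAF2. It had 3.43, 2.87, 5.04, 2.42 and 5.10 CPM in EC, 254, 414, 74.3, 718 and 450.2 CPM in CAF1, and 1402, 3410.3, 1754, 1453 and 2467 CPM in CAF2. The 3 populations did not overlap. EC were 154-fold below CAF1 (log2 -7.27 ± 0.67, adjusted p = 9.86e-10) and 756-fold below CAF2 (log2 -9.56 ± 0.74, adjusted p = 1.59e-11). CAF1 were 4.88-fold below CAF2 (log2 -2.29 ± 0.58, adjusted p = 0.0144), lower in 5 of 5 tumours, with an adjusted p of 0.0711 without tumour 6. The CAF1 library of tumour 8, lowest in Igfbp6 and Igf1 among CAF1, also had the lowest sum of adventitial fibroblast transcripts (6 genes, 110 CPM, against 463 to 1354 CPM in the other 4) and the highest of smooth muscle, whose part was not tested. Cd34, which sorted CAF2 from CAF1, is 1 of those 6 adventitial genes. In macrophages it had 14.9, 21.8, 3.87, 15.9 and 9.42 CPM in CD206hi, 22.6, 45.8, 12.3, 61.5 and 11.8 CPM in CD206pos, and 0.708, 1.19, 1.74, 0.778 and 0.879 CPM in CD206neg. Every CD206+ library was above every CD206neg library, and in each tumour CD206hi was below CD206pos. CD206hi were 10.8-fold above CD206neg (log2 3.43 ± 0.57, adjusted p = 0.000657), CD206pos 26.2-fold above it (log2 4.71 ± 0.58, adjusted p = 5.8e-05), and CD206hi over CD206pos gave log2 -1.28 ± 0.47 (adjusted p = 0.520). EC were below the macrophages as a whole (log2 -1.76 ± 0.50, adjusted p = 0.00301), which joins unlike differences. EC were below CD206hi (log2 -2.47 ± 0.56, adjusted p = 0.000457) and CD206pos (log2 -3.75 ± 0.58, adjusted p = 2.75e-06), while EC over CD206neg gave log2 0.94 ± 0.63 (adjusted p = 0.205), with every EC library above every CD206neg library in CPM.

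**Figure D3:**
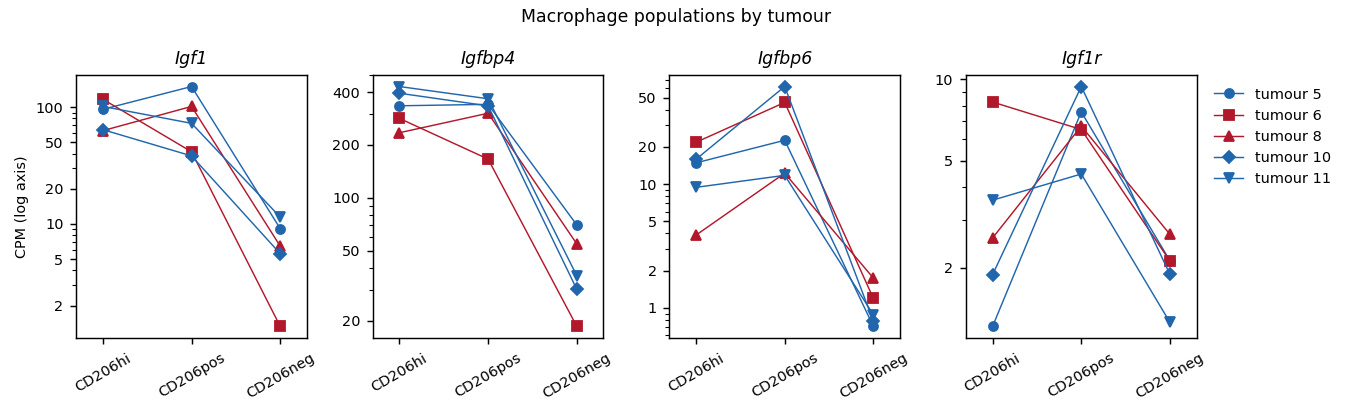
CPM (log axis) of Igf1, Igfbp4, Igfbp6 and Igf1r in the 3 macrophage populations, 1 line per tumour, in red for tumours 6 and 8, whose CD206neg columns are named for high MHC class II. Igf1, Igfbp4 and Igfbp6 drop in every tumour at CD206neg, where Igf1 is at most 11.4 CPM, against at least 38.2 CPM in both CD206+ populations.

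Igf1, Igfbp4 and Igfbp6 were thus the 3 members higher in both CD206+ populations, and each of these 6 calls held under every alternative tried, including without the CD206neg libraries of tumours 6 and 8. Both comparisons share the CD206neg libraries. The 7 fibroblast markers summed to 0.0306% of their CAF2 mean in CD206hi, 0.0227% in CD206pos and 0.0203% in CD206neg. In the same order, Igf1 stood at 23.3%, 21.4% and 1.79% of its CAF2 mean, Igfbp4 at 15.4%, 13.8% and 1.92%, and Igfbp6 at 0.628%, 1.47% and 0.0505%. This was not particular to these 3. In each macrophage population every member but Igf2 stood at a higher percent of its CAF2 mean than the marker sum did. Igfbp5, for example, stood at 6.1%, 7.36% and 3.35% in that order and Igfbp7 at 0.176%, 0.167% and 0.168%. Igf2 stood at 6.88% in CD206hi, on 4 reads, and had none in CD206pos or CD206neg, too few to place it there. These percents hold for CAF2 as the reference, which is not where every member was highest. Igfbp3 and Igfbp7 averaged 1.92 and 4.66 CPM in CD206hi, against 11029 and 15701 CPM in EC. Blood endothelial transcripts (7 genes) summed to means of 6.07 CPM in CD206hi and 6561 CPM in EC. The part of cells of another type in any of these levels was not tested. Genes of the dissociation response (6 genes) summed to 4861 to 14119.7 CPM in CD206hi, 2872 to 10644 CPM in CD206pos and 3343 to 4847 CPM in CD206neg. Their part in the differences from CD206neg was not tested.

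On a scale per length (CPM per kb of exon), which allows different genes to be added, the 6 binding proteins summed to 16910.2 ± 5763 in EC, 8959 ± 1589 in CAF1, 4767 ± 1073 in CAF2, 99.6 ± 19.7 in CD206hi, 109 ± 22.1 in CD206pos and 18.8 ± 5.89 in CD206neg (SD, n = 5 each). EC and CAF1 overlapped, through the EC library of tumour 8, and CD206neg lay below the other macrophages. The make-up of that sum differed. Igfbp7 took 76.3% ± 9.28 of it in EC, 72.6% ± 8.07 in CAF1 and 46.6% ± 4.61 in CAF2. The second gene was Igfbp3 in EC (20.5% ± 9.19), Igfbp2 in CAF1 (10.96% ± 4.08, with Igfbp4 at 9.86% ± 3.92, within that spread) and Igfbp6 in CAF2 (38.7% ± 8.19). In macrophages Igfbp4 had the highest mean share, 76.6% ± 11.3 in CD206hi, 64.5% ± 20.4 in CD206pos and 51.2% ± 18.2 in CD206neg. It did not lead in tumour 6 in CD206pos, where Igfbp6 had 41.2 and Igfbp4 37.6 CPM per kb. In the CD206neg library of tumour 6, named for high MHC class II, Igfbp5 took 36.7% and Igfbp4 19.9%. Mean shares without the CD206neg libraries of tumours 6 and 8 are not given here. Shares sum to a whole, so a high share of 1 gene lowers the others.

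**Figure D4:**
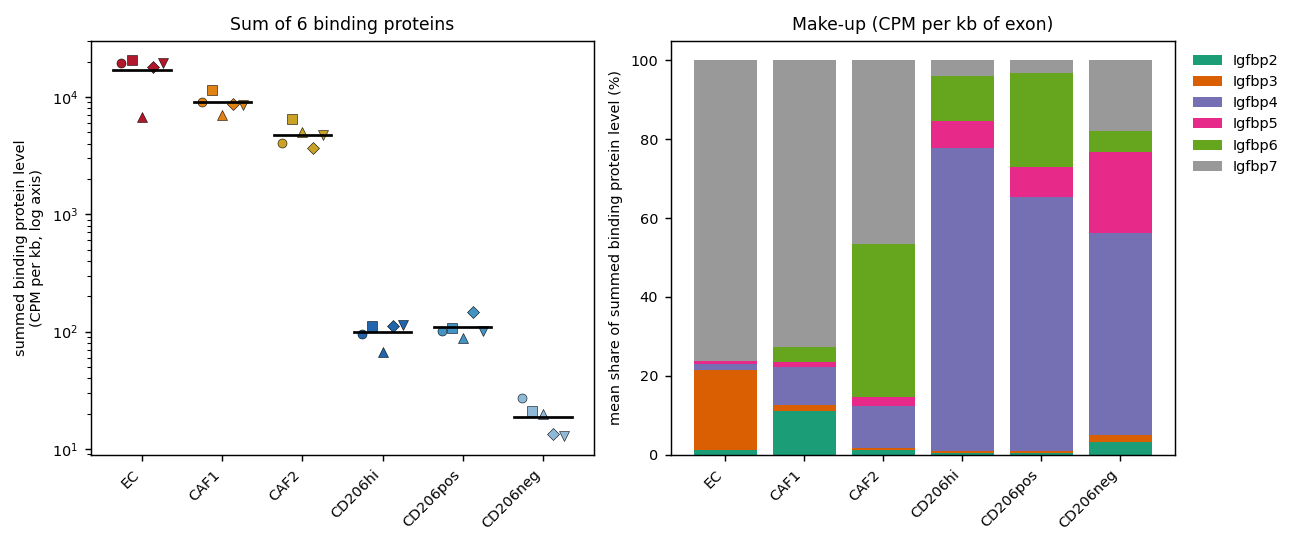
Left, summed level of the 6 binding proteins per library (CPM per kb, log axis) with the mean as a line. Right, mean share of each binding protein in that sum by population (n = 5 libraries each). Igfbp7 fills 76.3% in EC, Igfbp6 38.7% in CAF2 and Igfbp4 76.6% in CD206hi.

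Ordered by mean CPM, the 6 populations give 5 neighbouring pairs per gene and 45 in all, of which 41 could be tested and 18 differed at an adjusted p under 0.05. Since the same libraries gave the order, this count is a description. For Igf1 the order was CAF2, CAF1, CD206hi, CD206pos, EC and CD206neg, and CAF2 did not differ from CAF1, nor CD206hi from CD206pos. Its step from EC to CD206neg was close to the threshold (adjusted p = 0.0472). That step without the CD206neg libraries of tumours 6 and 8 is not given here. The Igf2 order was CAF1, EC, CAF2 and the macrophages, with EC and CAF2 not differing. Its step from CAF1 to EC was close to the threshold (adjusted p = 0.0494) and was lost in 11 of 15 sets that left out libraries. Igf1r ran EC, CAF1, CAF2, CD206pos, CD206hi and CD206neg, and no neighbours in it differed. Igfbp3 (EC, CAF1, CAF2, then macrophages) differed at each of its first 3 steps. Igfbp2 (CAF1, EC, CAF2, macrophages) differed at the first and the third step, and its EC mean lay above that of CAF2 through the EC library of tumour 8, without which EC were below CAF2, as given above. In Igfbp4 the order was CAF1, CAF2, EC, CD206hi, CD206pos and CD206neg, with CAF1 and CAF2, EC and CD206hi (adjusted p = 0.0518), and CD206hi and CD206pos not differing. Igfbp5 (CAF2, CAF1, EC, CD206pos, CD206hi, CD206neg) differed only between EC and CD206pos. Igfbp6 ran CAF2, CAF1, CD206pos, CD206hi, EC and CD206neg, not differing between CD206pos and CD206hi or between EC and CD206neg. Igfbp7 (EC, CAF1, CAF2, then macrophages) differed between CAF1 and CAF2 and between CAF2 and CD206hi.

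The genes whose pattern over the 30 libraries was most like each member were found by Pearson's r of log2(TMM-scaled CPM + 1) among 10086 other genes with a mean of at least 5 CPM (10087 for Igf2, itself below that level). For Igf1 they were Clmp (0.93), Aldh7a1 (0.90) and Bet1 (0.90), and for Igf2 Msx1, Acta2 and Tagln (each 0.90). For Igf1r they included Dab2ip (0.89) and Rbpms (0.89). Igfbp2 had Nkd2 (0.97), Ecrg4 (0.97) and the actin-binding Tagln (0.96), and Igfbp3 had the endothelial receptor Ephb4, Tspan9 and Inhbb (each 0.98). Igfbp4 had Id3 (0.94), Palld (0.93) and Gem (0.93), and Igfbp5 had Tgfb2, Auts2 and Boc (each 0.95). Igfbp6 had Aff3 (0.96), Ifi205 (0.96) and Lpar1 (0.95), and Igfbp7 had Wwtr1, Yap1 and Phldb2 (each 0.99), the first 2 encoding the transcriptional cofactors TAZ and YAP. These r describe 30 libraries that share 5 tumours and fall into 6 populations, so they mostly follow the differences between populations. Igf2 and Igfbp2 shared Tagln, a smooth muscle gene that averaged 39.7 in EC, 334 in CAF1 and 44.3 in CAF2 (CPM).

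Of 37 other IGF pathway genes, 31 were in the matrix. Insrr, Pappa2, Adam28, Igfbp1, Igfbpl1 and Igf2bp1 were not analysed here. In EC against CAF1, 6 of the 30 tested were higher and 14 lower (median log2 -0.47, against -0.00 over all genes), beside 15.9% of all genes higher and 18.8% lower. In EC against CAF2, 7 were higher and 9 lower of 30 (median -0.09 against 0.05), beside 23.7% and 22.3% of all genes. Insr, the insulin receptor, which can pair with IGF1R in hybrid receptors, averaged 843 ± 412 CPM in EC, 30.4 ± 15 CPM in CAF1 and 22.3 ± 6.03 CPM in CAF2 (n = 5 each, SD). EC exceeded CAF1 22.1-fold for Insr (log2 4.46 ± 0.47, adjusted p = 1.29e-08) and CAF2 29.2-fold (adjusted p = 2.06e-09). Stc1, a stanniocalcin (the family inhibits PAPP-A), averaged 603 CPM in EC, 34.4 CPM in CAF1 and 7.93 CPM in CAF2, and EC were 14.4-fold above CAF1 (adjusted p = 4.73e-07) and 59.5-fold above CAF2 (adjusted p = 8.46e-10). Foxo1, a transcription factor restrained by AKT, was also higher in EC than in CAF1 (3.73-fold, adjusted p = 1.33e-06), and Pik3r1, a PI3K regulatory subunit, higher than in CAF2 (3.55-fold, adjusted p = 3.63e-08). Lower in EC than in CAF1 were the adaptor Irs2 (11.6-fold, log2 -3.54, adjusted p = 7.99e-08) and the non-coding H19 of the Igf2 locus (8.54-fold, log2 -3.09, adjusted p = 0.00159). Irs2 gave log2 -4.20 without the EC library of tumour 5 and -4.28 without tumour 5. H19 gave log2 -5.35 without the EC library of tumour 8, -5.54 without tumour 8, -2.34 without the CAF1 library of tumour 10 and -2.10 without tumour 10 (adjusted p = 0.0603 in this last case), and -4.14 in limma. Irs1 (10.9-fold, log2 -3.45, adjusted p = 8.57e-05) and the serine protease Htra1 (7.75-fold, log2 -2.95, adjusted p = 8.25e-05) were lower in EC than in CAF2. Without the EC library of tumour 8 they gave log2 -4.52 and -3.72, and without tumour 8 log2 -4.56 and -3.74.

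In CAF1 against CAF2, 9 of 30 were higher and 4 lower (median log2 0.30 against 0.01), beside 10.9% of all genes higher and 8.59% lower. The secreted serine protease gene Htra3 averaged 16.1 ± 2.51 CPM in EC, 211 ± 94.9 CPM in CAF1 and 2862 ± 280 CPM in CAF2, so that CAF1 were 11.4-fold below CAF2 (log2 -3.51 ± 0.46, adjusted p = 0.000225) and EC 20.3-fold below CAF1 (adjusted p = 6.34e-08) and 233-fold below CAF2 (adjusted p = 1.02e-11). The stanniocalcins Stc2 (5.64-fold, adjusted p = 0.00142) and Stc1 (4.17-fold, adjusted p = 0.00768) were higher in CAF1, as was H19 (3.78-fold, log2 1.92, adjusted p = 0.0459). The H19 call was lost in 10 of 15 sets that left out libraries (adjusted p up to 0.25), with log2 1.15 without the CAF1 library of tumour 10 and 1.05 without tumour 10. The adaptor Grb10, a brake on the receptor (2.49-fold, adjusted p = 0.0007), and the kinase Akt2 (1.52-fold, adjusted p = 0.0127; 0.0512 without tumour 10) were lower in CAF1.

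In macrophages 19 of the 37 could be tested, and none passed in CD206hi against CD206pos. In CD206hi against CD206neg 2 were higher and 3 lower (median log2 0.20 against 0.02), beside 6.14% and 3.9% of all genes. In CD206pos against CD206neg 1 was higher and 1 lower (median 0.30 against 0.02), beside 8.85% and 5.85% of all genes. Insr averaged 29.3 ± 14.7 CPM in CD206hi, 29.2 ± 8.24 CPM in CD206pos and 9.64 ± 4.55 CPM in CD206neg (SD, n = 5 each), 2.89-fold higher in CD206hi (adjusted p = 0.00616) and 2.90-fold higher in CD206pos (adjusted p = 0.00533) than in CD206neg. The first of these was lost without tumour 6 (0.0572), tumour 11 (0.0688) or both CD206neg libraries of tumours 6 and 8 (0.0619), and the second without tumour 11 (0.0504). The kinase gene Jak2 was 2.17-fold lower in CD206hi than in CD206neg (adjusted p = 0.00106). Stat5b was 1.63-fold higher (adjusted p = 0.0344), and Htra3 (2.93-fold, adjusted p = 0.0354) and the adaptor Grb2 (1.68-fold, adjusted p = 0.0351) were lower in CD206hi, but of the 15 sets that left out libraries Stat5b was lost in 11, Htra3 in 13 (log2 -1.55, or -2.15 without the CD206hi library of tumour 8) and Grb2 in 8. Htra3 was also 2.95-fold lower in CD206pos than in CD206neg (adjusted p = 0.027), lost in 8 of 15. Fibroblasts exceeded macrophages in 21 of 30 and were lower in 3 (median log2 1.74, against 0.10 over all genes), beside 37.3% of all genes higher and 30.8% lower. Highest by fold were Htra1, the metalloprotease gene Adam12 and Grb10, which averaged 387, 49.2 and 91.5 CPM in fibroblasts and 0.728, 0.0853 and 0.230 CPM in macrophages (adjusted p = 1.45e-16, 2.09e-19 and 2.67e-19). Grb2 (6.37-fold, adjusted p = 5.19e-17) and Pik3r1 (1.91-fold, adjusted p = 6e-07) were lower in fibroblasts. EC exceeded macrophages in 18 of 30 and were lower in 6 (median log2 3.05 against 0.17), beside 36.5% and 24.7% of all genes. Stc1, Grb10 and Adam12 averaged 603, 149 and 46.3 CPM in EC, against 0.338, 0.230 and 0.0853 CPM in macrophages (adjusted p = 5.87e-18, 6.51e-19 and 5.18e-18). Irs2 (5.69-fold, log2 -2.51, adjusted p = 6.53e-07), Grb2 (4.09-fold, adjusted p = 1.63e-11) and Htra3 (3.31-fold, adjusted p = 0.000505) were lower in EC. Irs2 gave log2 -3.18 without the EC library of tumour 5 and -3.28 without tumour 5. Igf2r, the receptor that clears IGF2, averaged 39.6 ± 4.97 CPM in EC, 33.7 ± 11.9 CPM in CAF1, 32.4 ± 3.67 CPM in CAF2, 1.95 ± 1.60 CPM in CD206hi, 3.09 ± 2.08 CPM in CD206pos and 0.974 ± 0.719 CPM in CD206neg.

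**Figure D5:**
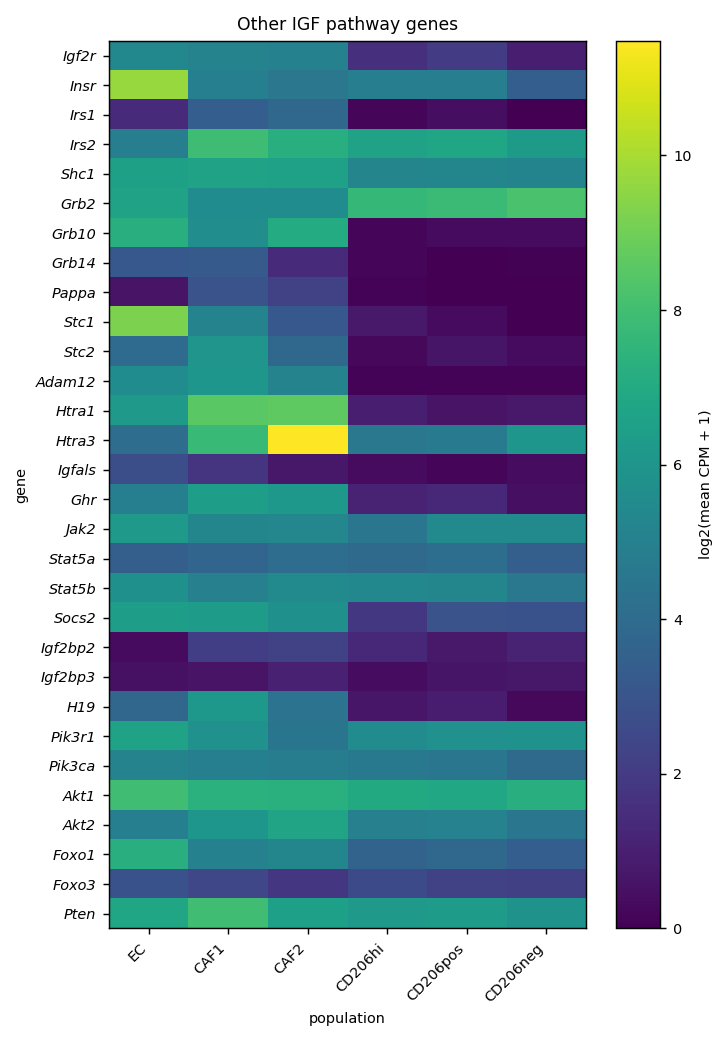
Mean level of 30 of the 31 other IGF pathway genes in the matrix, as log2(mean CPM + 1), in the 6 populations (n = 5 libraries each), from dark (0) to bright. Insr (843 CPM) and Stc1 (603 CPM) are brightest in EC, and Htra3 (2862 CPM) in CAF2.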

How the data were processed

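The deposited values are counts of reads per Entrez gene, and the authors' normalised values are a signal made from those counts with 1 size factor per library, per the file headers and as checked on every gene. The submitters' processing notes name the build mm10 and DESeq2 1.26, SAMtools 1.3.1, HISAT2 2.0.4 and Trimmomatic 0.36. How reads were counted (tool, annotation, strand) is not given in the sources used here. In the matrix no gene has fewer than 72 counts in total. Libraries were grouped by their labels. Members and gene lists were chosen with earlier results of these data known.

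Counts were tested in R 4.3.3 with edgeR 4.0.16 (filterByExpr, TMM, quasi-likelihood test), at a Benjamini-Hochberg adjusted p under 0.05, with population as the only term. The 10 fibroblast libraries (12149 genes), the 15 macrophage libraries (11052 genes) and, between lineages, all 30 (13610 genes) were fitted separately, with biological coefficients of variation of 0.337, 0.364 and 0.387. Lineage means weight populations equally on the log2 scale. The SE beside an edgeR log2 fold change was derived from the test, as the absolute change over the square root of its F. It is not a separately fitted error. The populations of a tumour come from 1 animal, so tumour numbers pair the libraries: deviations from group means correlated between libraries of a tumour by 0.0205 to 0.381 among fibroblasts, 0.111 to 0.648 among macrophages and 0.0213 to 0.574 over all. The value with tumour as a block stands beside a result it changes.

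Alternatives were no count filter or one of 50 counts in 5 libraries, scaling by RLE, DESeq2 1.42.0, that block, limma 3.58.1 on log2(signal + 1), other libraries in the fit, each library or tumour left out, and the 2 CD206neg libraries of tumours 6 and 8 left out together. All 9 members are named. Of 37 other pathway genes, those past the threshold at 10 CPM or more are named, up to 3 per comparison and direction, and other genes beside a result that turns on them (Pappa, Igf2r) were chosen after their values were seen. For each member the 3 genes with the highest r are named, except 1 gene that is not reported here. Promoter sequences are RefSeq's (GRCm38.p6), and the scripts were tested on simulated data. Exon lengths are unions over transcripts of the annotation.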

Additional observations from a re-analysis of the deposited data

Results flagged for a closer look

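Of 52 groups of 5 libraries, 7 had 1 library whose gap to the nearest other took more of the group's range than Dixon's 95% limit for 5 samples. For normally distributed values chance flags about 1 in 20. The ratio was taken on CPM without a log, some from few reads, and all 7 flags were the highest library. That rate may thus not hold here, and the number of flags cannot be set against it. The EC library of tumour 8 had 662 CPM of Igfbp2, against 6.35 to 19.6 CPM in the other 4, and the CD206neg library of tumour 8 had 3.17 CPM of Igfbp2, against 0.251 to 0.927 CPM. The other 5 values are from 2 macrophage libraries of tumour 6. Igfbp5 had 110.1 CPM in CD206hi (the others 16.0 to 38.5 CPM) and 46.6 CPM in CD206neg (the others 11.4 to 19.9 CPM). Igfbp3 had 5.59 CPM in CD206hi (the others 0.708 to 1.33 CPM) and 2.91 CPM in CD206neg (the others 0.251 to 0.910 CPM), and Igfbp7 had 9.36 CPM in CD206hi (the others 3.18 to 3.77 CPM). These 2 libraries of tumour 6 also had the highest luminal epithelial sums of their groups. The CD206hi library was also highest for blood endothelial (10.2 CPM) and myoepithelial transcripts (14.9 CPM), but not for fibroblast ones. The CD206neg library was highest for fibroblast transcripts (31.9 CPM), but not for blood endothelial or myoepithelial ones. The part of any of these in the flagged values was not tested.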

How the results depend on the processing

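Over 66 member values in the 8 comparisons, 1697 values under alternatives gave 1590 with the same direction and side of the threshold, 42 past it in the reported fit but no longer, 4 newly past it, and 61 with the other sign. None of those 61 was past the threshold in either fit. The number of members called in CAF1 against CAF2 ranged from 3 to 5 over the sets left out, with 3 without tumour 6, and no other such count moved over 1.5 times. Neighbours told apart were 18, with 15 to 20 over the sets left out.

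Igfbp5 in CAF1 against CAF2 gave log2 -0.0198 with the block and -0.0053 in limma. Igfbp7 in CD206hi against CD206pos gave -0.0329 with RLE factors and -0.0524 in DESeq2. In CD206hi against CD206neg Igfbp7 gave 0.0223 with the block, 0.12 in limma and 0.31 without both CD206neg libraries of tumours 6 and 8, and 0.31 without them in CD206pos against CD206neg. Other signs turned with libraries left out: in CAF1 against CAF2, Igf1 ran from -0.80 to 0.0293 and Igfbp5 from -0.20 to 0.23; in CD206hi against CD206pos, Igfbp3 from -0.91 to 0.60, Igfbp4 from -0.0813 to 0.44, Igfbp5 from -1.04 to 0.36 and Igfbp7 from -0.37 to 0.76. In CD206hi against CD206neg, Igfbp3 ran from -0.39 to 1.56, Igfbp5 from -0.15 to 1.22 and Igfbp7 from -0.50 to 0.47, and in CD206pos against CD206neg Igfbp3 from -0.14 to 1.60 and Igfbp7 from -0.91 to 0.47. In EC against CAF1 Igf1r ran from -0.13 to 0.31, and in EC against CAF2 Igf2 from -0.72 to 0.18 and Igfbp2 from -3.21 to 0.54. The cause was not tested.

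Beyond the calls given above, Igf2 in CAF1 against CAF2 was not past the threshold in limma (adjusted p = 0.101) or with all 30 libraries in the fit (0.104), nor Igf2 in EC against CAF1 with no filter (0.0553), Stat5b with no filter (0.0614) and H19 in limma (0.0548). The block changed no other member call. Over all genes, calls in CD206hi against CD206pos numbered 21, or 97 with the block, 85 in DESeq2, 36 with all 30 libraries in the fit and 0 to 48 over the sets left out, with 0 without tumour 6, 10 or 11. CD206hi against CD206neg gave 1110, or 1791 with the block, 545 without both libraries and 535 to 1164 over the sets left out (535 without tumour 11, 652 without tumour 6), and CD206pos against CD206neg gave 1625, or 2800, 930 and 765 to 2070 (765, 818, 1064 and 1074 without tumours 10, 11, 6 and 5). The Igf2 bounds with libraries left out were added after seeing the data. Counts of 10 to 78 reads limit Igf1r in macrophages, and Igf2 and Igfbp2 are too low there to test.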
